A study of Mus musculus with 45 samples.

Results

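Gene expression in the nucleus accumbens (NAC) was compared between mice taken at 0 h after the last session of chronic intermittent ethanol (CIE) vapor and mice that had breathed air (Ctrl). The members are the 6 CIE and the 6 Ctrl arrays whose labels give 0 h as the time of sacrifice, which are 12 of the 45 arrays of the series. All were adult male C57BL/6J mice, and each array held RNA of 1 mouse with no pooling. Chamber sessions lasted 16 h on each of 4 days, and 4 such cycles were run, each separated from the next by 7 ethanol-free days. CIE chambers held 10 to 13 mg ethanol in each l of air. At the start of a cycle CIE mice were injected with 1.6 g/kg ethanol together with 1 mmol/kg pyrazole, which blocks alcohol dehydrogenase, whereas Ctrl mice were given saline with an equal dose of pyrazole, so that repeated pyrazole, injections and time in chambers were shared by both groups. The later groups had the same treatment and were taken at 8 h (5 CIE, 5 Ctrl), 72 h (5 CIE, 6 Ctrl) and 7 d (6 CIE, 6 Ctrl). They served to ask whether an effect differed from that at 0 h. Their spread also entered the standard error and p of every change at 0 h, because all 45 arrays were fitted together. At 0 h the CIE mice had just left the vapor, so the effect of ethanol still present and that of repeated cycles cannot be told apart.

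The NAC lies in the ventral striatum, and most of its neurons are GABAergic medium spiny neurons that carry either D1 or D2 dopamine receptors. They receive glutamate from cortex, hippocampus and amygdala and dopamine from the ventral tegmental area. Neuronal activity switches on immediate early genes within minutes. Stress raises glucocorticoids, whose receptor switches on another well known group of genes in neurons, glia and vessels. Both kinds of response are known from rodents given ethanol, as is activation of microglia, the resident immune cells of the brain.

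A change below is the mean of CIE arrays less that of Ctrl arrays in log2 units, with its standard error (SE) from limma, and a gene was called when the p adjusted over all 45037 probesets was 0.01 or less. Medians of the 45 arrays lay between 6.94 and 6.96. Shared equal values placed 11 of the 12 arrays in hybridization sets, and 5 of these sets held 1 CIE and 1 Ctrl array of 0 h, so that each change could also be read within 5 pairs. Ctrl replicate 20 fell in no set, and the set of CIE replicate 72 held no Ctrl array of 0 h. Both arrays are therefore missing from every value given within the sets. Of 24 measured markers of medium spiny neurons 0 were called (2 fell without CIE replicate 43), and their mean level, taken from the average of the 12 arrays, ran from -0.05 to 0.22 in Ctrl and from -0.47 to 0.30 in CIE. Markers of cortical pyramidal neurons, which should be rare in this region, varied most: the mean of 9 markers ran from -1.22 to 0.47 in Ctrl and from -1.14 to 1.30 in CIE, highest in CIE replicates 72 (1.30), 5 (0.94) and 67 (0.72). None of the 9 was called. When the level of these markers in each array was added to the fit, a setting chosen after the data had been seen, 693 probesets were called, 607 of them among the 717 below. The part of cortical tissue in single results was not tested beyond this.

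**Figure D1:**
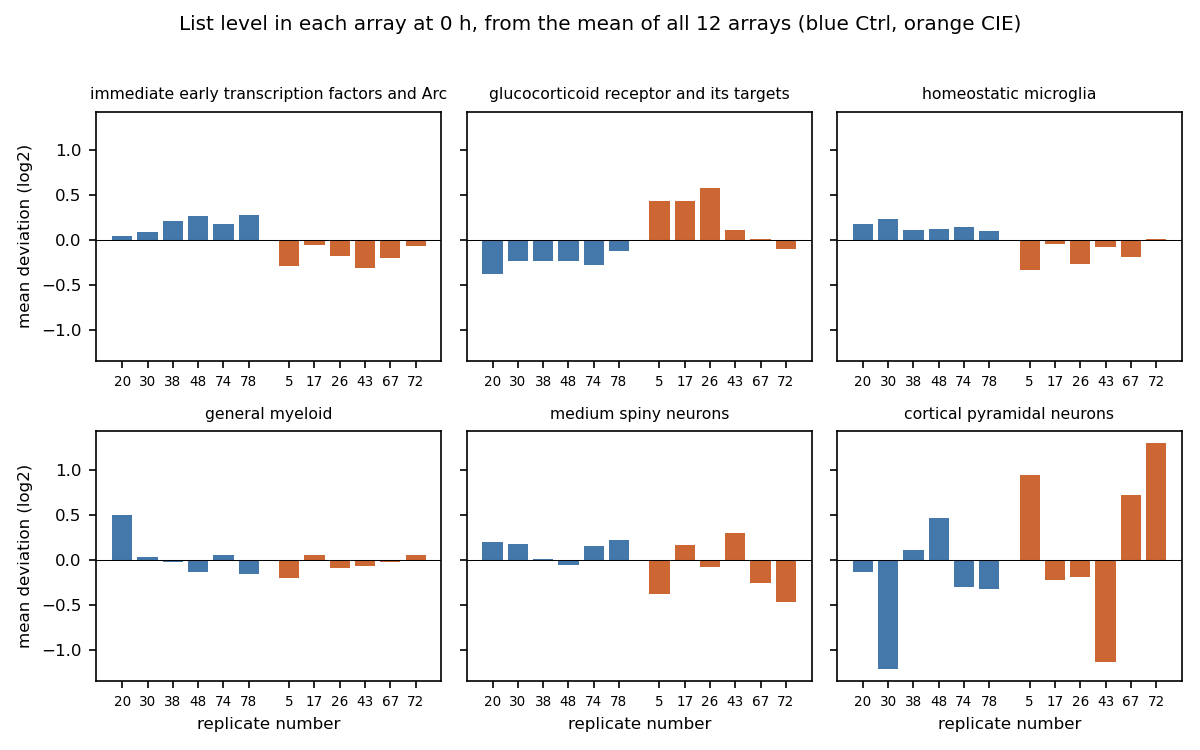
Mean level of 6 gene lists in each 0 h array on the log2 scale, as the deviation from the mean of the 12 arrays (blue bars Ctrl, orange bars CIE, replicate numbers below). Every CIE array lies below every Ctrl array for the immediate early and the homeostatic microglia lists, whereas cortical markers range from -1.22 to 1.30 with both groups spread over most of that range.

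A total of 717 probesets, or 1.59% of those tested, differed between CIE and Ctrl at 0 h. Of these, 438 were higher in CIE (0.973%) and 279 lower (0.619%). They stood for 340 genes higher in CIE and 196 genes lower, 5 of which counted in both directions, and 111 of the probesets had no single gene symbol. Most changes were modest, with a median size of 0.38 and an interquartile range of 0.29 to 0.49. Only 178 exceeded 0.50, and 15 exceeded 1, of which 8 were higher and 7 lower in CIE. No value of any CIE array overlapped those of Ctrl for 374 of the called probesets (52.2%), compared with 1.35% of all probesets. The sign was the same in all 5 sets for 597 (83.3%), compared with 10.2% of all probesets. The calls were made from the same arrays, so both high shares were built in and are no separate support. The count of 717 depended on single arrays. Omitting CIE replicate 5 left 366, omitting Ctrl replicate 30 left 437, and omitting CIE replicate 26 left 465. With the sets as a block, 299 were called and 276 were shared with the 717. The 12 arrays fitted alone, without the spread of the later groups, gave 19. Array weights, which are lower for noisier arrays, ran from 0.42 to 1.15 at 0 h and from 0.31 to 2.10 in the later groups. Only CIE replicate 17 lay above 1 at 0 h, whereas most of the later arrays did. With these weights in the fit, 309 probesets were called. Whether the shared spread understates the error at 0 h was not tested. A core of 233 probesets (134 higher, 99 lower) was called with the block and in each of the 12 fits that left out 1 array of 0 h.

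The 15 rises with the smallest p ranged in size from 0.30 to 1.03, and in all but Cym the groups did not overlap. Rab33a, a small GTPase of vesicle traffic (chromosome X, 48513663 to 48530240), had values of 10.39, 10.50 and 10.58 (lowest, median and highest of 6 arrays) in Ctrl and of 10.80, 10.91 and 11.01 in CIE. The lowest CIE array was thus above the highest Ctrl array, and the means were 10.49 ± 0.07 (SD, n = 6) and 10.91 ± 0.09 (SD, n = 6). The change was 0.42 (SE 0.05, 1.33-fold, adjusted p = 3.41e-07), and within the sets it ran from 0.23 to 0.51.

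Cebpb, a leucine zipper transcription factor of inflammation and metabolism (chromosome 2, 167688915 to 167690432), had values of 8.58, 8.80 and 9.05 in Ctrl and of 9.21, 9.40 and 9.55 in CIE. It rose by 0.58 (SE 0.07, adjusted p = 2.27e-06), both of its probesets were called, and the groups did not overlap. Rasl11b, a Ras-like GTPase (chromosome 5, 74195326 to 74199477), had values of 10.06, 10.28 and 10.69 in Ctrl and of 10.95, 11.14 and 11.31 in CIE. It rose by 0.81 (SE 0.11, 1.75-fold, adjusted p = 5.61e-06), again without overlap. Pik3ip1, which restrains PI3-kinase (chromosome 11, 3319241 to 3342971), went from a range of 9.20 to 9.46 in Ctrl to one of 9.62 to 10.05 in CIE, a rise of 0.51 (SE 0.07, adjusted p = 4.07e-06). Rprd2, which binds the tail of RNA polymerase II, ranged from 7.21 to 7.83 in Ctrl and from 8.28 to 8.75 in CIE. Its rise of 0.95 (SE 0.11, adjusted p = 4.02e-07) came from 1 of 8 probesets, and the changes over the 8 ran from -0.14 to 0.95.

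Other rises of this kind were in genes of 2 predicted membrane transporters, Slc45a4 (0.52, 9.15 to 9.31 against 9.65 to 9.82) and Mfsd3 (0.52, 7.67 to 8.06 against 8.36 to 8.56), and in Ap1g2 (0.52), a subunit of the clathrin adaptor AP-1. Uri1 (0.30), a prefoldin-like protein, cyclin Y (Ccny, 0.30, by 1 of 7 probesets with changes from -0.36 to 0.30) and the methyltransferase-like gene Smyd4 (0.52) also rose with every CIE array above every Ctrl array. In all of these, each of the 12 fits with 1 array left out called the gene. Zfand4 (1.03) did not overlap either, with values of 7.57 to 8.14 in Ctrl and 8.40 to 9.66 in CIE, whereas Cym (0.89), the gene of chymosin, overlapped in 1 CIE array.

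**Figure D2:**
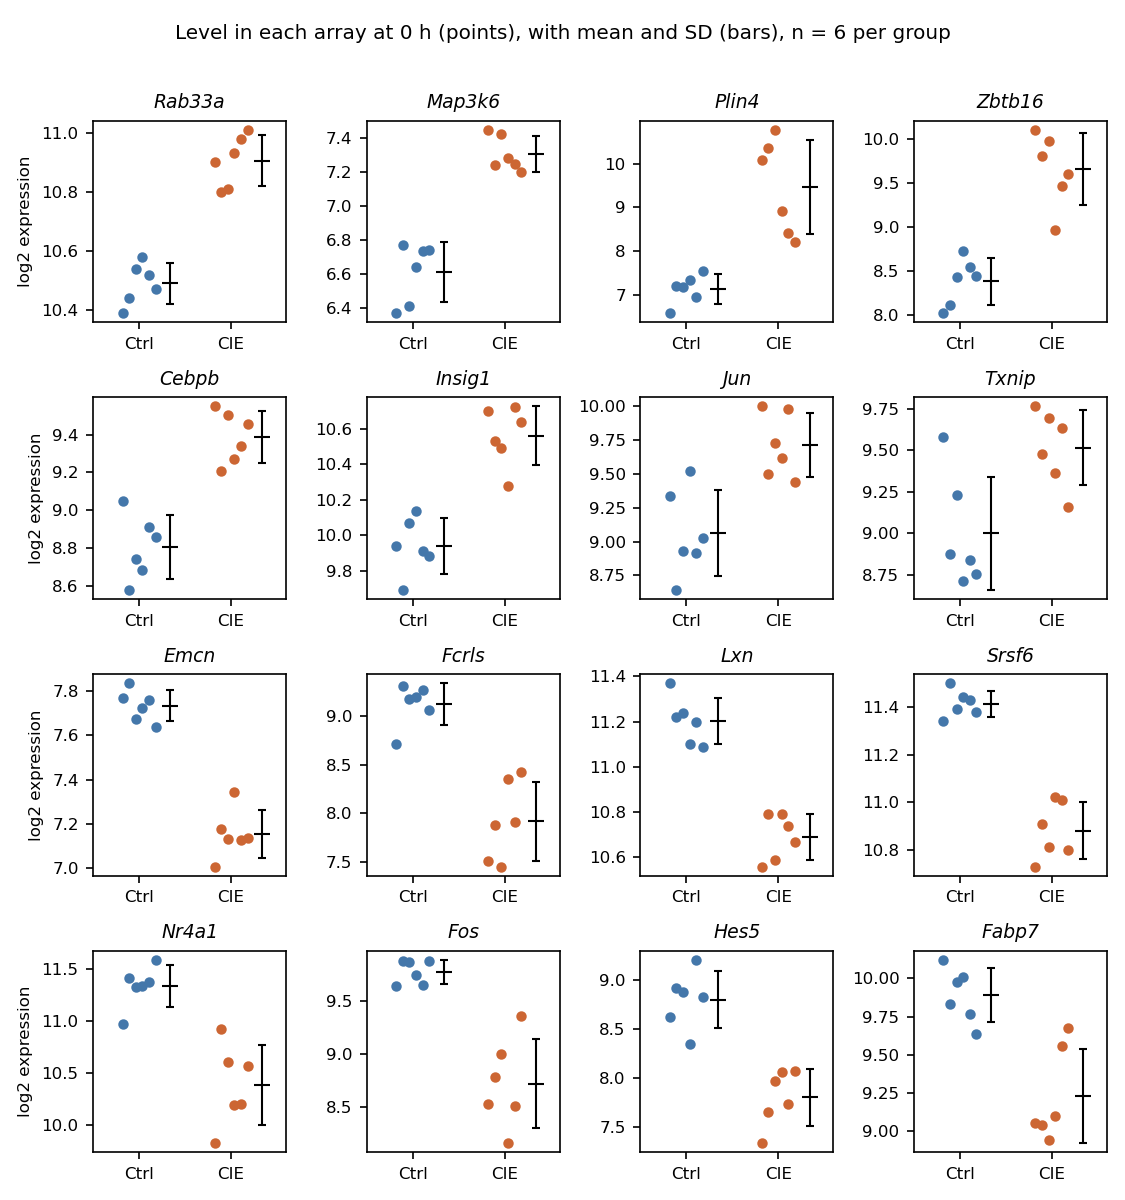
Log2 expression of 16 genes in each 0 h array (points), with the group mean and SD (bars, n = 6), in Ctrl (blue) and CIE (orange). The top 2 rows show genes that rose and the lower 2 rows genes that fell. Jun, Txnip and Fabp7 are the 3 in which the groups overlap.

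The fall with the smallest p was that of Emcn, which encodes endomucin, a sialomucin of venous and capillary endothelium (chromosome 3, 137341062 to 137431069). Its values were 7.64, 7.74 and 7.83 in Ctrl and 7.01, 7.13 and 7.35 in CIE. Every CIE array was below every Ctrl array, and the means were 7.73 ± 0.07 (SD, n = 6) and 7.16 ± 0.11 (SD, n = 6). The change was -0.58 (SE 0.05, 0.67-fold, adjusted p = 2.95e-10), and within the sets it ran from -0.83 to -0.41. Lxn (latexin), an inhibitor of carboxypeptidases (chromosome 3, 67457999 to 67463907), had values of 11.09, 11.21 and 11.37 in Ctrl and of 10.56, 10.71 and 10.79 in CIE. It fell by 0.51 (SE 0.06, adjusted p = 1.61e-07) without overlap.

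P4ha1, a prolyl hydroxylase needed for collagen folding (chromosome 10, 59323197 to 59373304), ranged from 9.17 to 9.41 in Ctrl and from 8.67 to 9.04 in CIE. It fell by 0.48 (SE 0.06, adjusted p = 9.07e-07). Cep41, a protein of centrioles and cilia, ranged from 7.60 to 7.81 in Ctrl and from 6.93 to 7.26 in CIE, and fell by 0.58 (SE 0.07, adjusted p = 2.74e-06), by 1 of 4 probesets. Utrn (utrophin), a relative of dystrophin, ranged from 10.88 to 11.10 in Ctrl and from 10.20 to 10.71 in CIE, and fell by 0.55 (SE 0.08, adjusted p = 2.39e-05). Mfge8, a bridging protein in the uptake of dying cells, ranged from 11.15 to 11.45 in Ctrl and from 10.73 to 11.07 in CIE, and fell by 0.36 (SE 0.05, adjusted p = 2.95e-05). None of these 4 genes overlapped between the groups. Several other falls were in genes of RNA and protein handling. The smallest p among them was that of Srsf6, a splicing factor (-0.53, SE 0.05, adjusted p = 6.84e-09), with values of 11.34 to 11.50 in Ctrl and 10.73 to 11.02 in CIE, by 1 of 4 probesets with changes from -0.53 to 0.14. Ncbp2, the small subunit of the nuclear cap-binding complex, fell by 0.33 (adjusted p = 9.07e-07), Rbm4b by 0.42 (adjusted p = 1.65e-05) and Cct3, a subunit of the cytosolic chaperonin, by 0.25 (adjusted p = 1.96e-05). The long noncoding RNA Firre fell by 0.71 (adjusted p = 1.43e-06), by 3 of 4 probesets, with 8.57 to 8.86 in Ctrl and 7.75 to 8.16 in CIE.

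Gene lists were read against all genes, each at its brightest probeset. A list member counts as called below by that probeset alone, unless any probeset is named. Of 18193 genes, 352 were called (1.93%), of which 233 rose (1.28%) and 119 fell (0.654%), and the median change was 0.02. Over these genes 10352 changes were positive and 7841 negative, beside which the signs in each list are to be read. Counts of signs were not tested. Every CIE array was above every Ctrl array for 194 genes (1.07%) and below for 102 (0.561%). The lists and their members were chosen with earlier results of these arrays known, and they are described by counts and medians. Over the 49 lists, 35 genes rose and 30 fell.

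**Figure D3:**
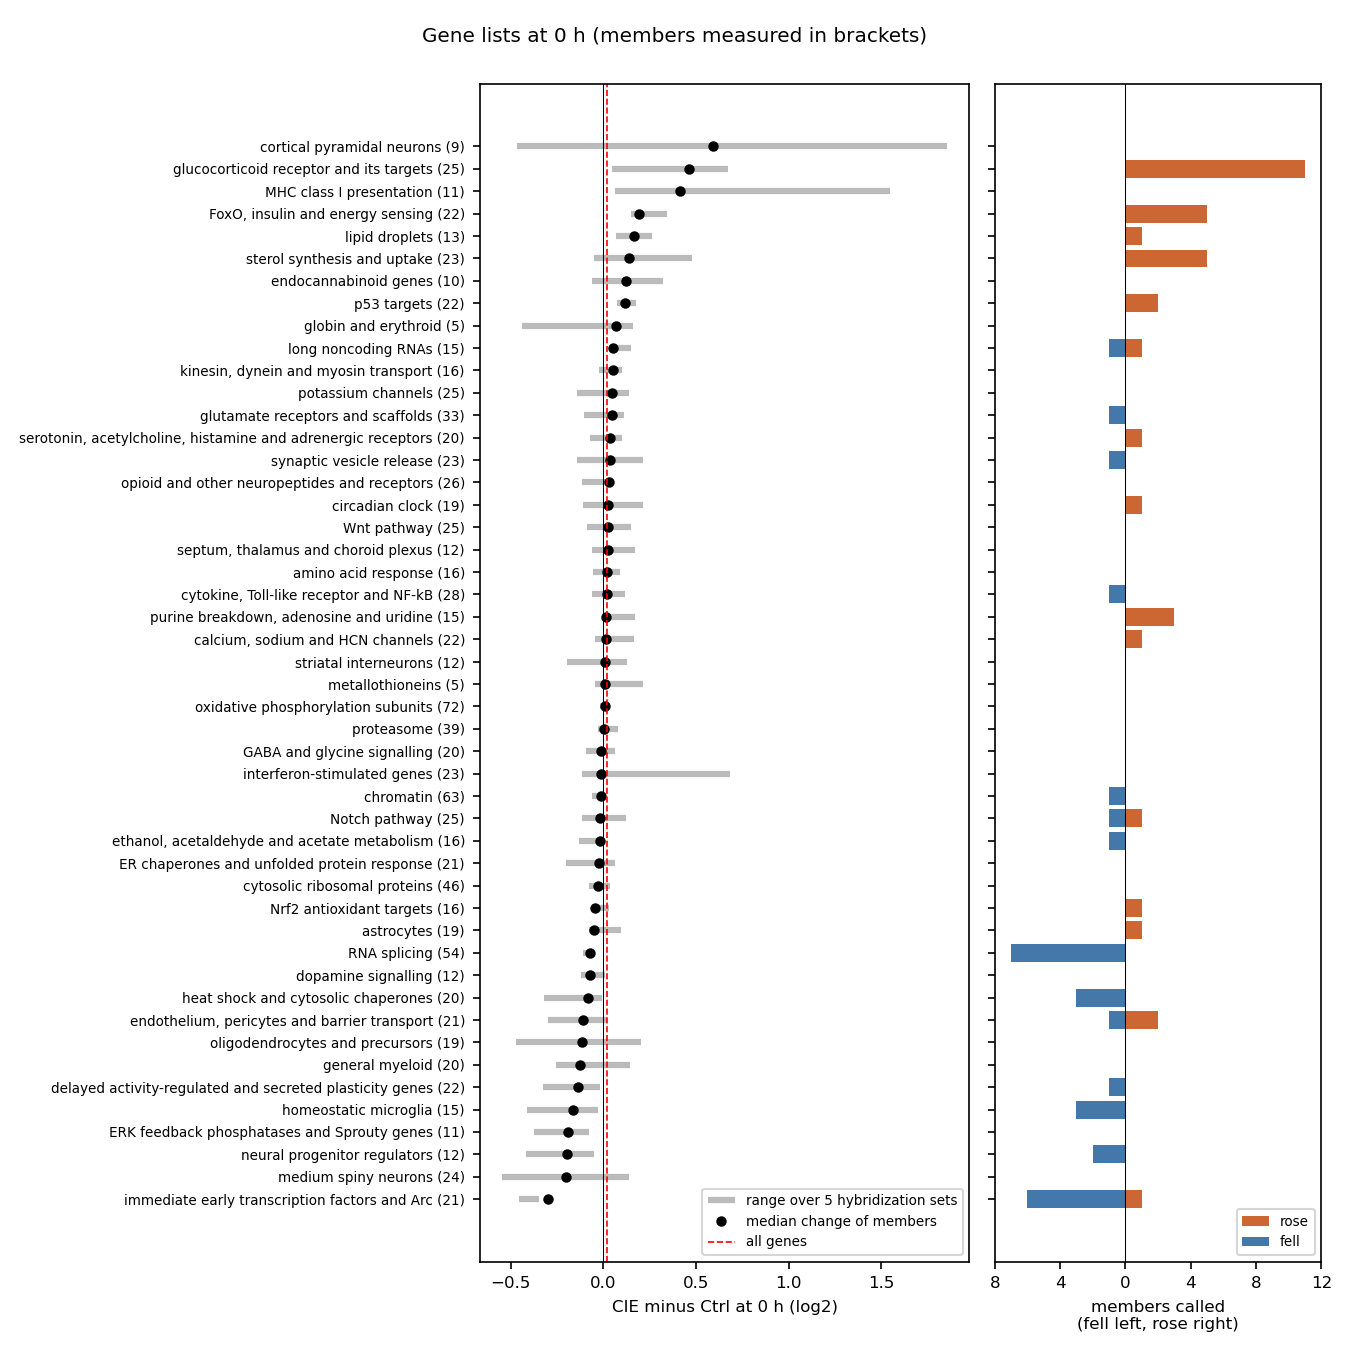
Median change of the members of each gene list with at least 5 measured members (left, log2 units; grey bars give the range of that median over the 5 hybridization sets, the dashed line the median of all genes) and the number of members called in each direction (right). Immediate early genes have the lowest median, -0.30, and lie below 0 in all 5 sets; glucocorticoid targets have 11 rises and 0 falls, the most rises of the lists shown.

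Of 21 measured immediate early genes, which encode short-lived transcription factors and the synaptic protein Arc, 6 fell, 1 rose and 14 were not called. The median change was -0.30, and 18 of the 21 changes were negative. Within the 5 sets, which leave out Ctrl replicate 20 and CIE replicate 72, the median ran from -0.45 to -0.35. In 6 members every CIE array was below every Ctrl array. Nr4a1, an orphan nuclear receptor (chromosome 15, 101253902 to 101274795), had values of 10.97, 11.36 and 11.59 in Ctrl and of 9.82, 10.39 and 10.92 in CIE. It fell by 0.95 (SE 0.14, 0.52-fold, adjusted p = 3.86e-05). Arc (chromosome 15, 74669081 to 74672570) had values of 9.35, 9.55 and 9.70 in Ctrl and of 7.80, 8.31 and 8.92 in CIE, and fell by 1.16 (SE 0.18, 0.45-fold, adjusted p = 6.22e-05). Neither gene overlapped between the groups, and the SD was 0.20 in Ctrl and 0.39 in CIE for Nr4a1 and 0.15 and 0.42 for Arc.

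Egr1, a zinc finger factor, ranged from 12.65 to 12.81 in Ctrl and from 11.93 to 12.38 in CIE, and fell by 0.51 (SE 0.07, adjusted p = 1.13e-05). Fos (chromosome 12, 85473890 to 85477274) had values of 9.65, 9.81 and 9.88 in Ctrl and of 8.16, 8.65 and 9.36 in CIE, and fell by 1.06 (SE 0.21, adjusted p = 0.00164). The groups did not overlap, and the SD was 0.11 in Ctrl and 0.42 in CIE. Npas4 (chromosome 19, 4984353 to 5003439), a factor induced by calcium entry in neurons, ranged from 7.96 to 8.98 in Ctrl and from 6.79 to 8.13 in CIE, and 1 CIE array overlapped. It fell by 1.03 (SE 0.22, adjusted p = 0.00276), was called in 9 of 12 fits with 1 array left out, and missed the threshold under the block (adjusted p = 0.0102). Nr4a3 fell by 0.55, without overlap, with an adjusted p of 0.016 with the block. Egr2 (-1.09) and Junb (-0.39) passed only at 0.05.

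Jun went the other way. Its values were 8.64, 8.98 and 9.52 in Ctrl and 9.44, 9.67 and 9.99 in CIE, with 4 CIE arrays above every Ctrl array. It rose by 0.65 (SE 0.13, adjusted p = 0.00145), in 5 of 5 sets, from 0.21 to 1.35, and in each of the 12 fits. Of its 2 probesets 1 was called, and the other had a change of 0.61. Among genes that act downstream, 0 of 11 dual specificity phosphatases and Sprouty genes of the ERK pathway were called, with a median of -0.19 and 10 negative changes. Of 22 delayed activity-regulated genes only Rgs2, a regulator of G protein signalling, was called. It ranged from 12.33 to 12.65 in Ctrl and from 11.90 to 12.39 in CIE and fell by 0.39 (SE 0.08, adjusted p = 0.00431), by 3 of 4 probesets, but it was called in 6 of 12 fits and missed the threshold with the block (adjusted p = 0.0109). Bdnf, a growth factor of neurons, did not differ beyond its error (0.21, SE 0.21, adjusted p = 0.689).

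Promoters of Fos and Npas4 are shown because both genes fell and because activity reaches such genes through sites of the factor CREB. The capitals mark TGACGT, the core of a cAMP response element, or its reverse complement ACGTCA, searched on both strands in the 250 bases before each RefSeq start (GRCm38.p6). The core was found in 6.47% of 32851 promoters. Of the 17 immediate early genes with a listed promoter, 8 held it, and of the 5 called members among them 3 did (Fos, Npas4 and Nr4a3), the others being Nr4a1 and Jun. Here and for the motifs below, the share is per promoter, whereas a gene counted if any of its listed starts held the motif. Counts of genes thus tend to be higher than the share and are not on the same footing. The stretches, read 5′ to 3′ along each gene's strand, are as follows.
Fos, chr12:85473784-85473869, plus strand, 106 to 21 bases before the start: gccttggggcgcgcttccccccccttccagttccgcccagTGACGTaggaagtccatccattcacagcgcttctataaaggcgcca
Npas4, chr19:4990095-4990191, minus strand, 220 to 124 bases before the start: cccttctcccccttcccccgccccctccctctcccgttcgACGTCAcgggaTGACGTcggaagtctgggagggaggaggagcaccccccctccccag
Fos holds 1 match and Npas4 2, on opposite strands. The Npas4 stretch lies inside the span given above for that gene, before a listed start within that span. A match is a string of letters in this window and says nothing of binding in these mice.

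Of 25 measured glucocorticoid-responsive genes 11 rose, 0 fell and 14 were not called, with a median change of 0.46 and 20 positive changes. With the sets as a block 6 of them were called, and leaving out single arrays gave 8 to 14 rises. The level of the list differed between CIE mice: its mean over members was 0.43, 0.43 and 0.58 in CIE replicates 5, 17 and 26 and 0.11, 0.01 and -0.10 in replicates 43, 67 and 72, and between -0.38 and -0.12 in the 6 Ctrl arrays. All 6 CIE arrays were thus above all Ctrl arrays, replicate 72 by little.

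Map3k6, a kinase upstream of the stress-activated MAP kinases (chromosome 4, 133237979 to 133252929), was the member with the smallest p. Its values were 6.37, 6.68 and 6.77 in Ctrl and 7.20, 7.26 and 7.45 in CIE, and it rose by 0.70 (SE 0.08, 1.62-fold, adjusted p = 5.83e-07). Unlike the list as a whole, its spread among CIE mice was narrow. Plin4, a coat protein of lipid droplets, had values of 6.59, 7.20 and 7.55 in Ctrl and of 8.21, 9.51 and 10.78 in CIE. Its rise of 2.33 (SE 0.34, adjusted p = 3.86e-05) thus covered a range from 0.88 to 3.44 within the sets. Zbtb16, a zinc finger repressor (chromosome 9, 48651797 to 48836225), ranged from 8.02 to 8.73 in Ctrl and from 8.97 to 10.11 in CIE and rose by 1.28 (SE 0.19, adjusted p = 5.49e-05). Hif3a, a hypoxia-inducible factor subunit (7.57 to 7.96 against 8.00 to 8.60), rose by 0.57 (adjusted p = 1.62e-05), and Gpd1, a glycerol phosphate dehydrogenase (8.56 to 8.97 against 9.06 to 9.34), by 0.46 (adjusted p = 0.000315). None of these 5 genes overlapped. Fkbp5, a co-chaperone of the receptor (9.74 to 10.26 against 10.03 to 10.94), overlapped in 1 CIE array and rose by 0.59 (adjusted p = 0.000341).

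The other 5 that rose were Arrdc2 (1.24), Rasd1 (0.95), Cdkn1a (0.88), Sult1a1 (0.80) and Tsc22d3 (0.54), and in each the groups overlapped and the call was lost with the block (adjusted p from 0.0124 in Rasd1 to 0.0419 in Tsc22d3). The receptor gene Nr3c1 was not called (-0.11, SE 0.06, adjusted p = 0.405), nor were Per1 (0.01), Mt2 (0.03) and Sgk1 (0.42). The promoter of Map3k6 is shown as the only called member with a match to a palindromic form of the glucocorticoid response element, the arms GNACA and TGTNC with any 3 bases between them, searched on both strands. That pattern was found in 0.387% of promoters and in 3 of the 21 members with a listed promoter (also Fam107a and Sgk1, neither called), and in 1 of 8 called members. Capitals mark the match. The stretch lies inside the span given above for the gene, before a listed start within that span.
Map3k6, chr4:133240597-133240689, plus strand, 221 to 129 bases before the start: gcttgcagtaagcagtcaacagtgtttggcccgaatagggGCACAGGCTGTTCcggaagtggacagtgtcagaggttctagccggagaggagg

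Genes of fasting, insulin and energy sensing, many of them targets of FoxO factors, gave 5 rises and 0 falls among 22 members, with a median of 0.19 and a range of 0.15 to 0.34 over the sets. Angptl4, an inhibitor of lipoprotein lipase (chromosome 17, 33774900 to 33781575), had values of 7.00, 7.11 and 7.43 in Ctrl and of 7.29, 7.81 and 8.17 in CIE, with overlap in 1 CIE array. It rose by 0.61 (SE 0.10, adjusted p = 0.000277). Txnip, a glucose-responsive inhibitor of thioredoxin, ranged from 8.71 to 9.58 in Ctrl and from 9.16 to 9.77 in CIE, with only 3 CIE arrays above every Ctrl array. It rose by 0.52 (SE 0.11, adjusted p = 0.00328), in 6 of 12 fits, and with the block its adjusted p was 0.00051. Ppargc1a, a coactivator of mitochondrial genes, rose by 0.39 (SE 0.08, adjusted p = 0.00427), by 4 of 5 probesets, and Prkaa2, a catalytic subunit of AMP kinase, by 0.24 (SE 0.05, adjusted p = 0.00651), but neither passed with the block. The 5 rises included Hif3a from the list above. Their number was 3 with the block or with array weights, 2 without CIE replicate 5 or Ctrl replicate 30, and 3 without CIE replicate 26 or 67 or Ctrl replicate 20, 48 or 74. Of 13 lipid droplet genes only Plin4 was called.

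Purine and pyrimidine breakdown gave 3 rises among 15 genes against a median of 0.01. Xdh, xanthine dehydrogenase (chromosome 17, 73883895 to 73950397), had values of 7.40, 7.58 and 7.80 in Ctrl and of 7.99, 8.29 and 8.48 in CIE, without overlap. It rose by 0.68 (SE 0.11, 1.60-fold, adjusted p = 0.000137). Adenosine deaminase (Ada) was low in Ctrl (5.19 to 5.71) and ranged widely in CIE (5.79 to 7.72), and uridine phosphorylase 2 (Upp2) went from 5.87 to 6.65 in Ctrl to 6.28 to 7.18 in CIE. Both were called (1.22, adjusted p = 0.00145, and 0.75, adjusted p = 0.00176), though not with the block (adjusted p = 0.0117 and 0.0141). The purine nucleoside phosphorylase gene Pnp did not pass (-0.26), and Nt5e, an ectonucleotidase, was 0.51 higher and did not pass.

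Other stress and rhythm lists gave 0 to 2 calls each. Of 22 p53 targets 2 rose, Cdkn1a, a cell cycle inhibitor, and Trp53inp1 (0.47, 9.40 to 9.74 against 9.80 to 10.22, adjusted p = 0.000412), the second without overlap. Cdkn1a ranged from 8.76 to 9.44 in Ctrl and from 9.13 to 10.89 in CIE, was 0.11 lower in CIE in 1 of 5 sets and missed the threshold with the block (adjusted p = 0.0201). Of 19 clock genes only Ciart, a repressor of the clock, was called (0.55, SE 0.11, adjusted p = 0.00255), with means of 8.78 ± 0.15 (Ctrl, SD) and 9.34 ± 0.27 (CIE, SD) and 5 CIE arrays above every Ctrl array. Counted at any probeset, 2 clock genes rose. Per1 (0.01), Per2 (0.01) and Npas2 (0.02) were not called. Cirbp, which encodes a cold-inducible RNA-binding protein, ranged from 10.31 to 10.70 in Ctrl and from 10.81 to 11.15 in CIE and rose by 0.43 (SE 0.09, adjusted p = 0.00195), with an adjusted p of 0.0103 with the block. Of 16 Nrf2 targets only Srxn1, sulfiredoxin, rose (0.36, adjusted p = 0.00732; 0.0173 with the block), in 3 of 12 fits, and 0 of 5 metallothionein genes and regulators were called.

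Enzymes of ethanol, acetaldehyde and acetate metabolism gave a single call. Of 16 genes only Aldh7a1 was called (-0.19, SE 0.04, adjusted p = 0.00917), with overlap, in 4 of 12 fits with 1 array left out, and not with the block (adjusted p = 0.0785). At any probeset 1 gene of the list fell and 1 rose. Aldh2, the main acetaldehyde dehydrogenase, had values of 10.06 to 10.45 in Ctrl and 9.97 to 10.34 in CIE (-0.12, SE 0.08, adjusted p = 0.532). Cat (-0.08), Cyp2e1 (0.10), Acss2 (0.15) and the acetate and lactate transporter Slc16a1 (-0.17) were not called.

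Sterol synthesis and uptake gave 5 rises and 0 falls among 23 members, and all 23 changes were above 0, with a median of 0.14. That median was positive in 3 of 5 sets, from -0.05 to 0.48. Hsd17b7, an enzyme of late cholesterol synthesis, ranged from 8.93 to 9.24 in Ctrl and from 9.41 to 9.62 in CIE and rose by 0.42 (SE 0.07, adjusted p = 7.25e-05). Insig1, whose protein holds back the factor SREBP when sterols are plentiful (chromosome 5, 28071412 to 28078662), had values of 9.70, 9.93 and 10.14 in Ctrl and of 10.28, 10.58 and 10.72 in CIE. It rose by 0.62 (SE 0.10, adjusted p = 9.21e-05), and neither of these genes overlapped. Tm7sf2, a sterol reductase, rose by 0.41 and Fdft1, squalene synthase, by 0.29, both missing the threshold with the block (adjusted p = 0.0112 and 0.0108). Stard5, a sterol carrier protein, ranged from 9.07 to 10.01 in Ctrl and from 9.07 to 10.75 in CIE. It rose by 0.83 (SE 0.20, adjusted p = 0.00875) in only 2 of 12 fits with 1 array left out. Hmgcs1 (0.13), Sqle (0.23) and Srebf2 (0.01) were not called. A form of the sterol response element, TCACNCCAC, was searched in promoters as above. It was found in 1.05% of promoters, in 1 of the 19 members with a listed promoter (Hmgcs1) and in 0 of 4 called members. The 5 rises were 3 without CIE replicate 5 or 67 or Ctrl replicate 30, 74 or 78. Cortical markers were highest in CIE replicates 72, 5 and 67, and with their level in the fit the list had 4 rises and a median of 0.09.

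Heat shock and cytosolic chaperone genes gave 3 falls and 0 rises among 20 members (median -0.08), each fall without overlap. Hsph1 (a large cytosolic chaperone, chromosome 5, 149616843 to 149636498) had values of 12.34, 12.40 and 12.54 in Ctrl and of 12.08, 12.14 and 12.27 in CIE. It fell by 0.24 (SE 0.04, adjusted p = 0.000309). Hspb1, a small heat shock protein (chromosome 5, 135887919 to 135889563), ranged from 9.27 to 9.62 in Ctrl and from 8.83 to 9.21 in CIE and fell by 0.40 (SE 0.08, adjusted p = 0.00155). Hspa4l ranged from 10.49 to 10.76 in Ctrl and from 10.28 to 10.49 in CIE and fell by 0.27 (SE 0.05, adjusted p = 0.0011). The inducible Hspa1a (0.61) and Hspa1b (0.92) had means above those of Ctrl and were not called; these near-identical copies may share probe signal. The promoters of Hspb1 and Hsph1 are shown because both fell and both hold paired units of the heat shock element, GAANNTTC or TTCNNGAA (capitals, both strands). These letters were found in 12.8% of promoters, in 8 of the 17 list members with a listed promoter and in 2 of 3 called members. The Hsph1 stretch lies inside the span given above for that gene, before a listed start within that span.
Hspb1, chr5:135887762-135887869, plus strand, 157 to 50 bases before the start: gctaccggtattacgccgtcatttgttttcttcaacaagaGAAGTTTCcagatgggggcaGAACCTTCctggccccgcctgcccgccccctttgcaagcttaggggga
Hsph1, chr5:149636337-149636409, minus strand, 73 to 1 bases before the start: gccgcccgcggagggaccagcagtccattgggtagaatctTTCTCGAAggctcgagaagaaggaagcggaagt

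Of 54 RNA splicing genes at their brightest probeset 7 fell and 0 rose, with a median of -0.07 that lay between -0.11 and -0.05 in the 5 sets, and 45 changes were negative. Clk1, a kinase that phosphorylates splicing factors, ranged from 12.29 to 12.45 in Ctrl and from 11.81 to 12.10 in CIE and fell by 0.41 (SE 0.05, adjusted p = 5.24e-06). The other 6 falls were in Clk4 (-0.31), Hnrnpm (-0.29), Hnrnpa2b1 (-0.19), Rbm39 (-0.18), Hnrnpc (-0.16) and Hnrnph1 (-0.15). The groups did not overlap in Clk1, Clk4, Hnrnpa2b1, Rbm39 and Hnrnph1, but 3 members were called with the block and 1 with array weights. The count was 2 without CIE replicate 72, 3 without CIE replicate 26 or Ctrl replicate 30, and 4 without CIE replicate 5 or Ctrl replicate 48 or 78. At any probeset 10 of the 54 fell and 1 rose, beside 196 falls and 340 rises over all 18193 genes counted in that way. Rbm39 had 12 probesets, of which 1 was called, with changes from -0.37 to 0.30. Of 63 chromatin genes 1 fell, the histone methyltransferase Kmt2a (-0.35, SE 0.08, adjusted p = 0.00673), with overlap, in 5 of 12 fits and not with the block (adjusted p = 0.0546).

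Of 15 measured markers of homeostatic microglia 3 fell, 0 rose and 12 were not called, with a median of -0.17 and a negative median in 5 of 5 sets. Fcrls, an Fc receptor-like gene of microglia, had values of 8.71, 9.19 and 9.31 in Ctrl and of 7.45, 7.89 and 8.42 in CIE and fell by 1.21 (SE 0.11, adjusted p = 1.46e-09). Olfml3, a secreted protein of microglia, ranged from 8.27 to 8.79 in Ctrl and from 7.42 to 8.21 in CIE and fell by 0.68 (SE 0.12, adjusted p = 0.000336). P2ry12, the ADP receptor that guides microglial processes (chromosome 3, 59216271 to 59262985), had values of 9.56, 9.79 and 9.98 in Ctrl and of 9.07, 9.24 and 9.60 in CIE. It fell by 0.48 (SE 0.09, adjusted p = 0.00103), with overlap in 1 CIE array. Cx3cr1, the fractalkine receptor, ranged from 9.48 to 10.30 in Ctrl and from 8.97 to 9.68 in CIE, a change of -0.58 (SE 0.15) that did not pass at 0.01 (adjusted p = 0.021). Csf1r (-0.0029), Tmem119 (-0.16) and Mertk (0.10) were not called. In bulk tissue fewer cells of a type and less RNA per cell cannot be told apart. Of 20 general myeloid genes, which microglia share with macrophages, 0 were called, with a median of -0.13 that was negative in 2 of 5 sets. Their mean level was 0.50 in Ctrl replicate 20 and between -0.20 and 0.06 in the other 11 arrays. Without CIE replicate 17 the microglial falls were 5.

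Of 12 measured genes of neural progenitors and radial glia 2 fell and 0 rose, with a median of -0.20 that was negative in 5 of 5 sets. Fabp7, a brain fatty acid-binding protein of astrocytes and progenitors (chromosome 10, 57784923 to 57788450), had values of 9.64, 9.90 and 10.12 in Ctrl and of 8.95, 9.07 and 9.68 in CIE, with 1 CIE array overlapping. It fell by 0.66 (SE 0.12, adjusted p = 0.000371). Nr2e1 (Tlx), a nuclear receptor that keeps progenitors undifferentiated (chromosome 10, 42561963 to 42583590), ranged from 7.34 to 7.82 in Ctrl and from 6.57 to 7.24 in CIE and fell by 0.66 (SE 0.12, adjusted p = 0.000395) without overlap. Hes5, a repressor induced by Notch, ranged from 8.35 to 9.21 in Ctrl and from 7.33 to 8.07 in CIE. It fell by 1.00 (SE 0.13, adjusted p = 4.01e-06), by both of its probesets. The Notch ligand gene Dll3 rose by 0.35 (adjusted p = 0.00673; 0.0557 with the block) in 5 of 12 fits, and the other 23 of 25 Notch pathway genes were not called, Hes1 (0.22) and Notch1 (-0.23) among them. Of 25 Wnt pathway genes 0 were called.

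Other glial markers gave a single call. Of 19 astrocyte genes only Gjb6, an astrocyte connexin, was called (0.56, SE 0.12, adjusted p = 0.0036), with values of 9.62 to 9.95 in Ctrl and 9.76 to 10.86 in CIE, in 7 of 12 fits. Counted at any probeset, 2 astrocyte genes rose. Slc1a2, the main glutamate transporter, differed by -0.01 (SE 0.05), and Gfap was not called (0.22, SE 0.27, adjusted p = 0.76), with 1 Ctrl array at 8.68 against a Ctrl median of 7.46. Of 19 oligodendrocyte genes 0 were called (median -0.12), and Mbp, a major myelin protein, differed by -0.03 (SE 0.05).

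Endothelial and pericyte genes gave 2 rises and 1 fall among 21 members, besides Emcn, which was not on the list. The 2 that rose are transporters of the blood-brain barrier. Slc2a1, the glucose transporter GLUT1 (chromosome 4, 119108745 to 119137330), had values of 11.26, 11.29 and 11.31 in Ctrl and of 11.43, 11.60 and 11.86 in CIE. All CIE arrays were above all Ctrl arrays, whose SD was 0.02 against 0.18 in CIE, and the rise was 0.33 (SE 0.07, adjusted p = 0.00345). Mfsd2a, a lipid transporter of brain endothelium, ranged from 8.47 to 8.92 in Ctrl and from 8.70 to 9.49 in CIE and rose by 0.43 (SE 0.09, adjusted p = 0.00458). Neither passed with the block (adjusted p = 0.0218 and 0.0234). Vtn, vitronectin, which pericytes make in brain, ranged from 10.41 to 10.75 in Ctrl and from 9.84 to 10.44 in CIE and fell by 0.46 (SE 0.07, adjusted p = 0.00011). The general endothelial genes Cldn5 (-0.07), Cdh5 (-0.02) and Pecam1 (-0.11) were not called, and the list's median was -0.11. Without Ctrl replicate 20 there were 3 falls, without Ctrl replicate 48 or CIE replicate 72 there were 2, and without CIE replicate 5, 17 or 26 there were 0 rises. With array weights 1 member rose.

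Lists of neuronal signalling genes had 0 or 1 called member each, beside 1.93% called over all genes. These lists, of 10 to 33 members, are too small for such counts to be told from that share. Among medium spiny neuron markers, Drd1 (-0.22, SE 0.09), Drd2 (-0.33, SE 0.16), Penk (-0.16, SE 0.08), Pdyn (-0.25, SE 0.14) and Ppp1r1b, a phosphoprotein regulated by dopamine (-0.31, SE 0.15), had adjusted p from 0.193 to 0.381, and 23 of 24 changes were negative. Their median of -0.20 was negative in 2 of 5 sets, and with the cortical marker level in the fit it was -0.10. Of 12 dopamine, 26 neuropeptide, 10 endocannabinoid, 20 GABA and glycine, 25 potassium channel and 16 motor protein genes 0 were called in each list. Counted at any probeset, 1 gene fell in each of the GABA and glycine, potassium channel and motor protein lists. With single arrays left out, 1 gene rose in the dopamine list (without CIE replicate 17), the endocannabinoid list (without CIE replicate 72 or Ctrl replicate 20) and the potassium channel list (without CIE replicate 72). The endocannabinoid list also had 1 rise with array weights and with the cortical marker level in the fit. The genes of these lists include Th (-0.40, SE 0.17), Crhr1 (-0.26, SE 0.09), Cnr1 (0.43, SE 0.19), Oprm1 (0.13, SE 0.15) and Kcnma1 (0.05, SE 0.19).

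Single members were called in 4 signalling lists. Hrh3, the histamine autoreceptor, ranged from 9.82 to 10.27 in Ctrl and from 10.34 to 10.64 in CIE, without overlap, and rose by 0.45 (SE 0.10, adjusted p = 0.00313). Cacnb2, an auxiliary subunit of voltage-gated calcium channels, ranged from 9.33 to 9.62 in Ctrl and from 9.66 to 9.86 in CIE, again without overlap, and rose by 0.30 (SE 0.06, adjusted p = 0.00168). Grm3, a metabotropic glutamate receptor, ranged from 12.22 to 12.39 in Ctrl and from 11.80 to 12.29 in CIE and fell by 0.32 (SE 0.07, adjusted p = 0.00327), the single call among 33 glutamate receptor and scaffold genes. Syt4, an atypical synaptotagmin, fell by 0.21 (SE 0.05, adjusted p = 0.00694). Leaving out single arrays kept the call of Cacnb2 in 12 of 12 fits, of Hrh3 in 9, of Grm3 in 8 and of Syt4 in 3. None of the 4 was called with the block, with adjusted p of 0.0126, 0.0175, 0.0241 and 0.065. Grin2b, a subunit of the NMDA receptor, was not called (0.10, SE 0.07).

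Lists of immune genes other than the microglial markers had 0 or 1 called member each, beside 1.93% called over all genes. Of 28 cytokine, Toll-like receptor and NF-kB genes only Vcam1, an adhesion molecule of activated endothelium, was called. It had values of 8.75, 9.07 and 9.38 in Ctrl and of 8.35, 8.65 and 8.73 in CIE and fell by 0.45 (SE 0.10, adjusted p = 0.00375), without overlap, but not with the block (adjusted p = 0.041). Il1b (0.01), Tnf (0.04), Ccl2 (0.01) and Tlr4 (0.09, SE 0.07) were not called, and of 23 interferon-stimulated genes 0 were called. The interferon list had a mean level of 1.25 in Ctrl replicate 20, against -0.42 to -0.0062 in the other Ctrl arrays. Its median change was -0.015, and 0.23 with the block. All 11 genes of MHC class I presentation had positive changes (median 0.41) and 0 were called. Here Ctrl replicate 20 decided the outcome: its mean level over the list was 1.28, against -0.77 to -0.38 in the other Ctrl arrays and -0.28 to 0.71 in CIE. Without it 4 of the 11 rose, and under the block, where that array stood alone, 3 rose with a median of 0.79.

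Genes of basic cell machinery were not called at their brightest probesets. Counted at any probeset, 1 ribosomal protein gene fell and 1 gene of the unfolded protein response rose. The numbers called at the brightest probesets were 0 of 46 ribosomal proteins (median -0.03), 0 of 72 subunits of oxidative phosphorylation (0.0077), 0 of 39 proteasome genes (0.0030), 0 of 21 genes of the unfolded protein response (-0.02) and 0 of 16 of the amino acid response (0.02). For globin and erythroid genes, which mark blood, and for markers of septum, thalamus and choroid plexus it was 0 of 5 and 0 of 12. Of 15 long noncoding RNAs, Dleu2 fell by 0.56 (7.94 to 8.26 against 7.28 to 7.88, adjusted p = 0.000132) and Snhg3 rose by 0.34 (adjusted p = 0.00985), the second in 2 of 12 fits and not with the block.

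Probesets of 1 gene can read different transcripts, and 5 genes had probesets called in both directions. Cyhr1 (chromosome 15, 76643395 to 76660208) had 1 probeset that rose by 0.33 (9.18 to 9.33 in Ctrl against 9.50 to 9.67 in CIE, adjusted p = 5.3e-05) and 1 that fell by 0.34 (9.65 to 9.88 against 9.22 to 9.70, adjusted p = 0.00117). Both calls held with the block and in all 12 fits. Ppp2r5c, a regulatory subunit of protein phosphatase 2A (chromosome 12, 110447144 to 110583075), had 1 probeset at 0.26 (adjusted p = 0.00627) and 1 at -0.27 (adjusted p = 0.00121), each without overlap. The first missed the threshold with the block (adjusted p = 0.0108). Fbxo3 (0.22 and -0.30), Fam120b (0.45 and -0.21) and Mrpl57 (0.22 and -0.39) showed the same kind of opposition, but none of their 6 calls held with the block. Which transcripts these probesets match was not tested.

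The effect at 0 h was then set against later effects from other mice. Against the mean effect of 72 h and 7 d, 174 probesets differed (0.386%), 80 with an effect at 0 h above the late effect and 94 with one below it. This count was 83 when CIE replicate 5 was omitted, 96 for CIE replicate 26 and 110 for Ctrl replicate 30. It was 75 under the block and 299 with the cortical marker level in the fit. Emcn and Fcrls had the smallest p. In Emcn the change was -0.58 at 0 h and -0.17 at 8 h, then -0.09 at 72 h and 0.04 at 7 d, so that its effect at 0 h was 0.55 below the late one (SE 0.06, adjusted p = 3.37e-07). In Fcrls they were -1.21, -0.83, 0.04 and 0.04 (difference -1.25, adjusted p = 3.37e-07). In Plin4 the changes were 2.33, 1.98, -0.24 and -0.39 (difference 2.65, SE 0.43, adjusted p = 0.000406).

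By list, the difference from the late effect passed for 6 of 25 glucocorticoid genes, all higher at 0 h, and for 4 of 21 immediate early genes and 3 of 15 microglial genes, all lower at 0 h. Over all genes at their brightest probeset it passed for 0.247% higher and 0.225% lower. The difference uses the same 0 h arrays as the calls at 0 h, so it adds no separate support for them. Among the 4 immediate early genes were Nr4a1, Arc and Egr1. Phkb, a subunit of phosphorylase kinase, which activates glycogen phosphorylase (chromosome 8, 85840853 to 86064251), was named by this contrast. It had values of 9.80, 9.95 and 10.00 in Ctrl and of 9.44, 9.61 and 9.74 in CIE, fell by 0.33 (SE 0.05, adjusted p = 3e-05), and its effect at 0 h was 0.41 below the late one (adjusted p = 0.000125).

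Between 0 h and 8 h, 0 probesets differed at 0.01 by limma, with 2482 at an unadjusted p below 0.05, and 7 passed at 0.05. Of these, Emcn (-0.58 against -0.17, adjusted p = 0.0238), Rab33a (0.42 against 0.06, adjusted p = 0.0448) and Uri1 (0.30 against -0.03, adjusted p = 0.0415) had changed at 0 h. Manf, an endoplasmic reticulum stress factor (-0.08 against 0.41, adjusted p = 0.0131), Depp1, a FoxO target (-0.26 against 0.82, adjusted p = 0.0427), Adm, adrenomedullin (-0.34 against 0.48, adjusted p = 0.0448), and Rpain (0.08 against -0.25, adjusted p = 0.0415) were not called at 0 h.

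**Figure D4:**
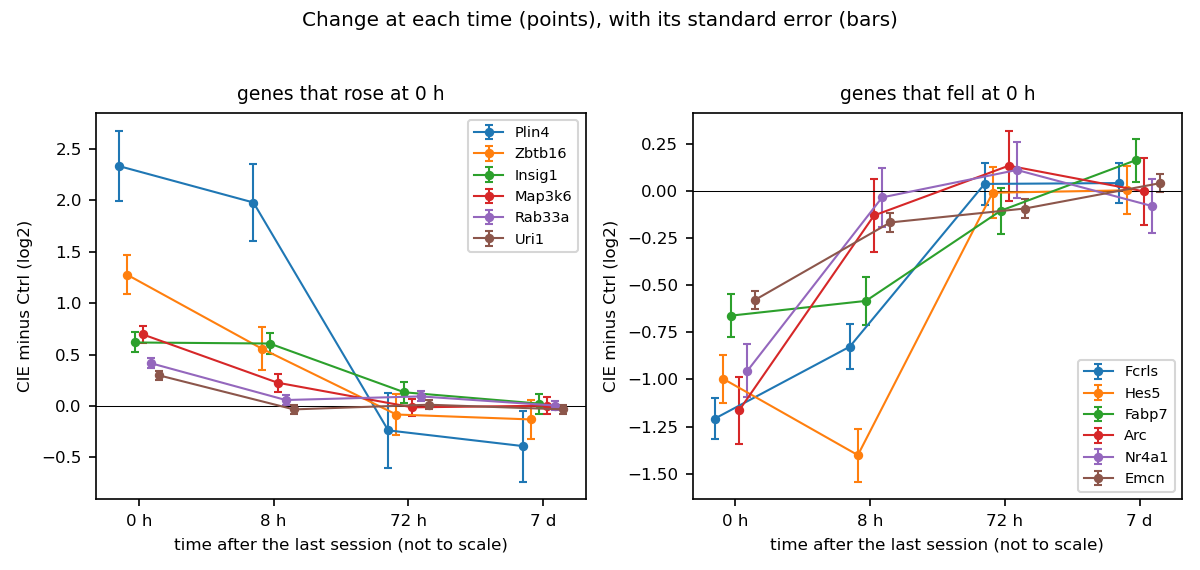
CIE minus Ctrl in log2 units by time after the last session (points; bars give the standard error, time axis not to scale) for 6 genes that rose and 6 that fell at 0 h. Plin4 and Insig1 are at 1.98 and 0.61 at 8 h, whereas Rab33a and Uri1 are at 0.06 and -0.03; Arc, Nr4a1 and Emcn lie between -0.17 and -0.04 at 8 h, and Fcrls, Fabp7 and Hes5 between -1.40 and -0.58.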

How the data were processed

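NAC RNA of 45 mice was hybridized to Affymetrix mouse genome arrays, 1 per mouse. The deposited values are log2 expression per probeset, which the authors made with RMA and quantile normalization within hybridization batches, joint quantile normalization and ComBat. Versions of these tools are not given in the sources used here. Quantile normalization forces equal distributions, so changes are relative to the bulk of probesets, and ComBat can shrink or add differences tied to batch. Arrays have no count depth, and their number limits the precision. No value was changed or filtered here, and the 45037 probesets exclude control probesets.

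Symbols came from the platform annotation: 34945 probesets had 1 symbol (18193 genes), 932 several and 9160 none. Positions came from a RefSeq table of GRCm38.p6, which held 34741 of the first. Promoters came from RefSeq too. A gene with several starts is shown at the first in the table.

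Groups came from the labels, which give no batch. Arrays with at least 5 exactly equal values (tolerance 2e-08) were joined into 6 sets of 6 to 8 arrays, with at most 1 array of a group in each. They are inferred and may differ from the authors' batches.

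limma 3.58.1 (R 4.3.3, lmFit and eBayes) was fitted to all 45 arrays with 8 group means. Benjamini-Hochberg adjustment was made within each contrast, with a threshold of 0.01. Fits were tested on simulated data. The members, lists (49, with 1028 of 1100 genes measured) and rules were chosen with earlier results of these data known. The genes named were the 15 rises and 15 falls with the smallest p, up to 6 called members of each list at their brightest probeset, a fixed set of genes followed throughout, genes with probesets called both ways, and the 10 with the smallest p in each later contrast. Further list members were named after their values were seen, as were the promoter motifs. Alternatives were the block, 0 h arrays alone, trend with robust, array weights, renormalization, centring, a mean of at least 5, brightest probesets, adjustment over 4 times, a threshold of 0.05, leaving out each array and the cortical marker level.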

Additional observations from a re-analysis of the deposited data

Results flagged for a closer look

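Of the genes named above, the log2 values of each group at 0 h were tested for single arrays far from the rest (Dixon's test, 242 groups of 6 arrays), and 10 arrays passed, where chance passes about 1 in 20. The 10 arrays are thus no more than that share of the 242 groups would give. Among Ctrl arrays these were replicate 38 for Ap1g2 (6.80), replicate 78 for Rbm4b (7.57), replicate 74 for Upp2 (6.65), replicate 48 for Manf (11.11) and replicate 20 for Gfap (8.68) and Phkb (9.80). Among CIE arrays these were replicate 72 for Stard5 (9.07), replicate 5 for Vcam1 (8.35), replicate 43 for Syt4 (12.03) and replicate 26 for Hnrnpa2b1 (12.23).

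The change at 0 h differed from the mean change of 72 h and 7 d, by limma's interaction contrast, for 49 of the 121 probesets named, with adjusted p from 3.37e-07 to 0.00939. Over all probesets 174 differed (0.386%). The named probesets were mostly chosen by their result at 0 h or in this contrast, which uses the same 0 h arrays. A high count among them was therefore built in and is no separate support. The effect at 0 h was above the late effect, on the log2 scale, in Rab33a (0.37), Rprd2 (0.90), Map3k6 (0.70), Cebpb (0.53), Pik3ip1 (0.53), Mfsd3 (0.50), Rasl11b (0.80), Slc45a4 (0.47), Ccny (0.28), Uri1 (0.31), Zfand4 (1.01), Cym (0.81), Hif3a (0.65), Smyd4 (0.46), Ap1g2 (0.51), Plin4 (2.65), Zbtb16 (1.39), Fkbp5 (0.61), Angptl4 (0.67), Xdh (0.74), Hsd17b7 (0.42), Slc2a1 (0.47), Cyhr1 (0.41). It was below the late effect in Emcn (-0.55), Fcrls (-1.25), Srsf6 (-0.55), Lxn (-0.47), Ncbp2 (-0.33), P4ha1 (-0.53), Firre (-0.72), Cep41 (-0.67), Hes5 (-0.99), Clk1 (-0.33), Egr1 (-0.52), Rbm4b (-0.45), Cct3 (-0.25), Utrn (-0.48), Mfge8 (-0.38), Nr4a1 (-0.97), Arc (-1.23), Hsph1 (-0.28), Hspa4l (-0.30), Olfml3 (-0.77), P2ry12 (-0.56), Fabp7 (-0.69), Vtn (-0.47), Dleu2 (-0.60), Cyhr1 (-0.38), Phkb (-0.41). Cyhr1 stands in both groups, through a different probeset in each.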

How the results depend on the processing

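No paired analysis was possible because the replicate numbers of the labels do not recur between groups; the inferred hybridization sets stood in as a block. The 717 probesets called at 0 h became 299 with the sets as a block, 309 with array weights, 396 with 1 probeset per gene, 377 with adjustment over the 4 times together, 1772 at 0.05 and 19 with only the 0 h arrays, and 366 to 892 when 1 array was left out (366 without CIE replicate 5). The 0 probesets whose effect differed between 0 h and 8 h became 1 with trend and robust fitting, 2 with 1 probeset per gene, 7 at 0.05 and 0 to 3 with 1 array left out. The 174 that differed from the late effect became 75 with the block, 109 with 1 probeset per gene, 299 with the cortical marker level (chosen after seeing the data), 485 at 0.05 and 83 to 227 with 1 array left out. The 65 called list members became 38 with the block, 1 with only the 0 h arrays, 43 with array weights, 40 with adjustment over the 4 times, 110 at 0.05 and 40 to 68 with 1 array left out. Of the 95 named probesets called at 0 h, 33 kept direction and lost the call with the block, and 86 did so with only the 0 h arrays. Signs turned in 3 genes that were not called: Slc1a2 was 0.0083 with the block, 0.013 with array weights and -0.046 to 0.017 with 1 array left out, Kcnma1 was -0.062 with the cortical marker level and -0.067 to 0.13 with 1 array left out, and Bdnf was -0.023 with the cortical marker level. The causes of these shifts were not tested, beyond fewer arrays or probesets where the setting itself removes them.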
